A study of Drosophila melanogaster with 2 samples.

Results

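The cytoplasmic ribosomal protein genes of Drosophila melanogaster encode the protein subunits of the ribosome that translates nuclear messenger RNA. Members were all protein-coding genes of the Ensembl annotation (BDGP6, release 115) whose symbol begins with RpL, RpS or RpLP followed by a digit, which gave 92 of 13968 protein-coding genes. Of these, 54 carry symbols of large-subunit proteins (RpL, with 4 RpLP symbols) and 38 carry symbols of small-subunit proteins (RpS). Among them 5 symbols end in -like, and some of these genes are related to assembly factors. The rule uses the symbols and no measured value. Their positions were compared with peaks of chromatin immunoprecipitation followed by sequencing (ChIP-seq) for the homeodomain protein B-H2 in whole embryos of mixed sex, 6 to 22 hours old. The embryos came from a transgenic line that stably makes B-H2 joined at its C terminus to green fluorescent protein, and B-H2 is the antibody target in the labels. The study had this group only, with 2 biological replicates numbered 1 and 3, no untreated or mutant embryos, and no measure of gene expression. The labels disagree on what the libraries are: a free-text line says input control, while the assay and antibody entries say immunoprecipitation, and the peak lists cannot settle which is right.

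In flies as in other animals, ribosomal proteins are made in large and balanced amounts, and loss of a single gene copy of many of them gives the slow-growing, thin-bristled Minute flies. Most ribosomal protein genes of the fly start transcription at a pyrimidine-rich initiator, the TCT motif, instead of the common initiator, and their promoters are known for the factors TRF2, DREF and M1BP. B-H2 is a Bar homeodomain protein, best known from the developing eye and sense organs, and homeodomains of this kind read short AT-rich sites.

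The sequences at the starts of members with strong peaks and of members without are given to compare their initiators. Each of the following runs holds 30 bases of the dm6 genome (RefSeq), from 14 bases before an annotated start to 15 after it, written 5′ to 3′ on the strand of the gene. The start is the one nearest to the peak, or the 5′-most where there was no peak. The first 8 belong to the members with the strongest peaks, leaving out RpL11, and the last 3 belong to members without a peak in the thresholded list described next. Capitals mark a TCT initiator, searched as CTTTC or CTTTT on the sense strand with its C within 5 bp of the start.
RpS27 (chr3R:25247499-25247528, minus strand): gttcagcattatttagtgcattctcgggca
RpL7 (chr2L:10200990-10201019, plus strand): gtgtgaccgtttggccgatggcgcgcgtgt
RpL34b (chr3R:9401211-9401240, minus strand): cgcgaacagggttgccacCTTTCtttctag
RpL14 (chr3L:8600992-8601021, plus strand): tgtcaaaaaagttCTTTCcttctctttctt
RpS4 (chr3L:13041787-13041816, plus strand): accgcccgcaaatctgcCTTTTccttttcc
RpL13A (chr3R:5624460-5624489, plus strand): tcaacgcaacttccgccttCTTTCcgtgcg
RpL23A (chr3L:1668639-1668668, minus strand): actgcccctcagttttcCTTTTcatttctt
RpL24 (chr2L:13395116-13395145, minus strand): ctgcccgtggcagccacactaatttggctc
RpL21 (chr2L:22247860-22247889, minus strand): aatatttagtttctaaactcttaattgcta
RpL40 (chr2L:4227685-4227714, plus strand): cggcggcggccacactctCTTTTccctttt
RpS9 (chr3L:9511516-9511545, minus strand): cacactaccttcacccctCTTTCtttttct
The motif stood at RpL34b, RpL14, RpS4, RpL13A and RpL23A, and it also stood at RpL40 and RpS9, which had no peak in that list. It was not found within that distance at RpS27, RpL7 and RpL24, which had strong peaks, nor at RpL21, but each of these 4 has it within 5 bp of another annotated start. A match of letters is a description of the sequence, not evidence of a start site in use.

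The authors deposited 4 peak lists. Each replicate had a permissive list of 30000 peaks, the pooled alignments of both replicates gave another 30000, and the list thresholded by the irreproducible discovery rate (IDR, which scores whether a peak's rank recurs in both replicates) held 4277 peaks. These 4277 are the pooled peaks of highest signal, from 112 to 3978 with a median of 168, against a median of 44.6 over the pooled list. A place in this list does not by itself show a peak in both replicates, as the case of RpL34a below shows. Signal is the value the authors' peak caller gave each peak, and it is used only within a list. Rank 1 is the peak of highest signal in its list. Peak lists hold no read counts, so the depth of the libraries is unknown. A gene was counted as marked where the summit of a peak, its highest point, lay within 1 kb of an annotated transcription start site (TSS) of that gene. Distances run to the nearest TSS of the gene, with minus for upstream. With 1 group and no control samples, shares are set beside those of all protein-coding genes and no test was made. Intervals of 95% cover only the counting of genes, which are not replicates of a condition.

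A larger share of ribosomal protein genes than of all protein-coding genes was marked, in the thresholded list and in each replicate. An IDR summit lay within 1 kb of a TSS at 77 of the 92 members (83.7%, exact interval 74.5 to 90.6), against 26.9% of all protein-coding genes. In the pooled list it was 89 members (96.7%), against 57.3% of all genes. Replicate 1 alone marked 87 members (94.6%), against 58.9%, and replicate 3 alone marked 88 (95.7%), against 60.2%. Those long lists reach most genes, so the strongest 4277 peaks of each replicate were also taken. They marked 72 members in replicate 1 (78.3%), against 26.6% of all genes, and 78 members in replicate 3 (84.8%), against 27.5%. The 2 replicates marked largely the same members in this way: 70 were marked in both, 2 in replicate 1 only, 8 in replicate 3 only and 12 in neither. Over all 13968 protein-coding genes, 3066 (22.0%) were marked in both, of 3722 marked in replicate 1 and 3839 in replicate 3. Large overlap between the replicates was thus not particular to the members.

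The marked members were spread over the genome. An IDR summit was found at 13 of 14 members on arm X, 15 of 19 on 2L, 17 of 21 on 2R, 13 of 14 on 3L and 18 of 23 on 3R, and the member on the small chromosome 4 had a summit too. Over all protein-coding genes the shares were 23.5% on X, 27.1% on 2L and 26.8% on 2R. They were 28.4% on 3L, 27.9% on 3R and 36.2% on chromosome 4. No arm held most of the members without a summit.

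Peaks at ribosomal protein genes were also strong within the thresholded list. The strongest IDR summit of a member had a median signal of 323 over 77 members (interval 295 to 393, range 116 to 1248), against 189 over the 3684 other marked genes. The middle 50% of members lay between 244 and 474. Among marked members, 63 of 77 (81.8%) had a peak in the stronger 2138 of the IDR list, against 60.8% of all marked genes. In the strongest 427 peaks it was 31 of 77 (40.3%), against 13.7% of all marked genes. The median rank was 566, against 1677 for all marked genes. Among the 100 peaks of highest signal were those of 5 members.

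**Figure D1:**
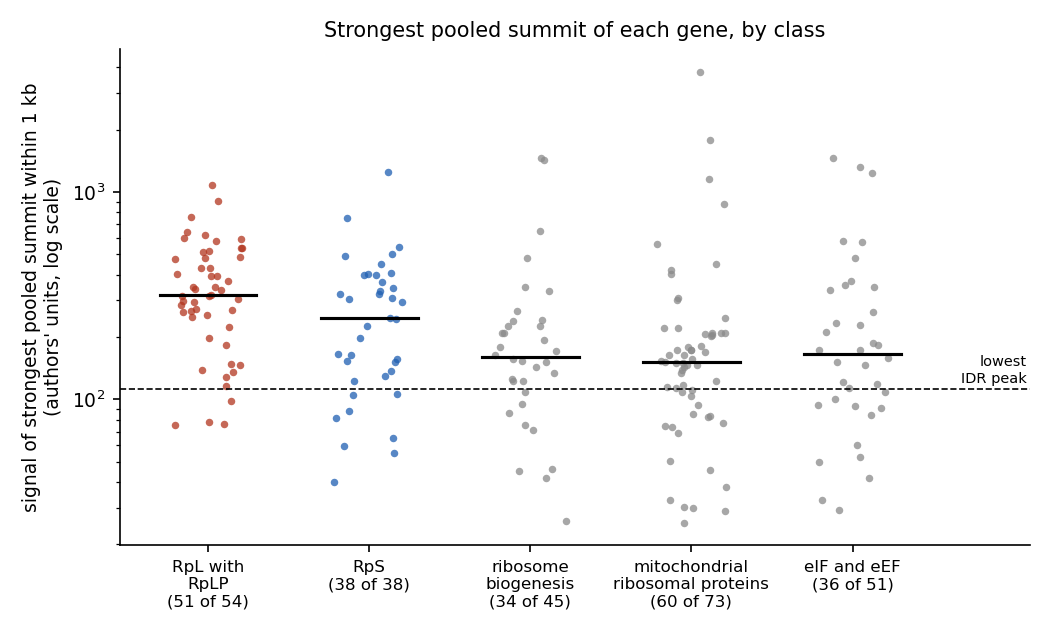
Signal of the strongest pooled summit within 1 kb of a TSS (authors' units, log scale) for each gene of 5 classes, with the number of genes that have such a summit under each name. Each point is a gene, black bars are medians and the dashed line is the lowest signal in the IDR list, 112. The medians were 319 for RpL with RpLP and 246 for RpS genes, against 160 for ribosome biogenesis genes, 151 for mitochondrial ribosomal protein genes and 167 for eIF and eEF genes.

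The 10 members with the strongest IDR summits comprised 8 large-subunit and 2 small-subunit genes. RpS27, which encodes a zinc-binding protein of the small subunit, led with a signal of 1248 at rank 23, with its summit 3 bp downstream of the TSS (chr3R:25247337-25247686). It ranked 75 in replicate 1 with a signal of 354 and 13 in replicate 3 with 901. RpL7, a large-subunit gene, had 1078 in the IDR list at rank 35 (chr2L:10200888-10201187), with ranks of 68 in replicate 1 and 23 in replicate 3. Both genes were thus near the top of every list.

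RpL34b, one of a pair of genes for the same large-subunit protein, had a signal of 906 at rank 50, and ranked 60 in replicate 1 and 45 in replicate 3. RpL14 followed with 755 at rank 82, and ranked 223 in replicate 1 and 49 in replicate 3. RpS4 had 749 at rank 83, with ranks of 218 in replicate 1 and 51 in replicate 3. These 5 are the members among the 100 highest ranks. RpL13A had 643, with ranks of 235 in replicate 1 and 80 in replicate 3. RpL11, whose protein joins RpL5 and the 5S ribosomal RNA in a particle of the large subunit, had 621, with ranks of 244 in replicate 1 and 97 in replicate 3.

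RpL23A encodes a protein at the exit of the ribosome's peptide tunnel, where the signal recognition particle docks. Its signal was 599, with ranks of 327 in replicate 1 and 86 in replicate 3. RpL24, which encodes a protein of a bridge between the subunits, had 596, with ranks of 363 in replicate 1 and 82 in replicate 3. RpL28 had 578, with ranks of 720 in replicate 1 and 75 in replicate 3. All 10 stood higher in replicate 3 than in replicate 1. The other 67 marked members lay between 116 and 545, the upper value at RpS21, and the lowest belonged to RpL38 (116), RpS13 (123) and RpL15 (128), named after their values were seen.

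The summits at ribosomal protein genes lay close to the start of transcription. Their median distance from the nearest own TSS was 22 bp (interval 16 to 35), against 126 bp for the other marked genes, and the farthest member, RpL35, was 105 bp away. Within 50 bp of a TSS lay 58 of 77 summits (75.3%), against 22.1% of those of other genes, and within 100 bp lay 76 of 77 (98.7%), against 43.1% over all marked genes. The members with the most distant summits inside the 1 kb limit were RpL35, RpS20 at 99 bp and RpL17 at 94 bp. Beyond the limit, the nearest IDR summits were 1118 bp from RpS14a, 1568 bp from RpL24-like and 1718 bp from RpS15Ab. The summit nearest to RpS14a is the strongest summit of its tandem copy RpS14b. No member had its nearest IDR summit between 105 bp and 1118 bp from a TSS, so a limit of 250 bp or 500 bp gave the same 77 members.

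**Figure D2:**
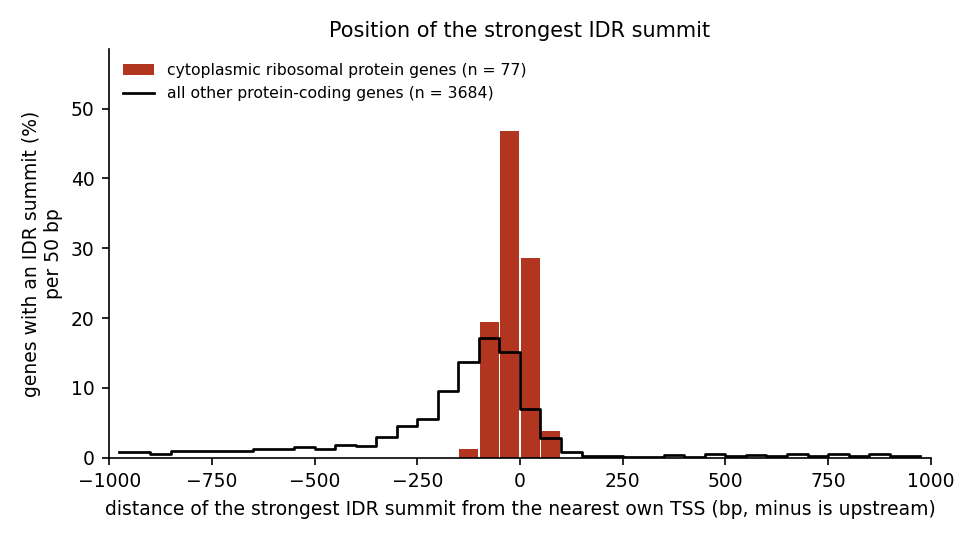
Distance of the strongest IDR summit from the nearest own TSS (bp, minus is upstream), as the percentage of marked genes in each 50 bp, for 77 cytoplasmic ribosomal protein genes (bars) and 3684 other protein-coding genes (line). Bars fall within 105 bp of the TSS, while the line extends far upstream.

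Summits lay upstream of the TSS at 52 of 77 members (67.5%), downstream at 24 and on the TSS itself at 1, RpS13. Over all marked genes 83.2% lay upstream, a larger share than at ribosomal protein genes. The 5′-most annotated start alone gave a median distance of 37 bp and an upstream position for 42 members, and members had up to 5 annotated starts.

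Most large-subunit and most small-subunit genes were marked. An IDR summit stood at 47 of 54 RpL and RpLP genes (87.0%, interval 75.1 to 94.6) and at 30 of 38 RpS genes (78.9%, interval 62.7 to 90.4). The difference was 8.09 percentage points, with an interval from -7.10 to 24.7 that includes 0. It turned to -0.585 points with a 2 kb limit, where 48 RpL and 34 RpS genes were marked. Without symbols ending in -like, 46 of 50 RpL and RpLP genes (92.0%) and 30 of 37 RpS genes (81.1%) had an IDR summit within 1 kb. In the pooled list 51 of 54 RpL and RpLP genes and all 38 RpS genes had a summit. Median IDR signal was 341 for RpL with RpLP and 314 for RpS, and median distance was 28 bp for RpL with RpLP and 21.5 bp for RpS. Among marked genes, 41 of 47 RpL and RpLP genes lay in the stronger 2138 peaks (87.2%), and 22 of 30 RpS genes did (73.3%). Upstream summits made up 34 of 47 for RpL with RpLP (72.3%) and 18 of 30 for RpS (60.0%). None of these differences was tested.

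The P-stalk of the large subunit, which recruits the elongation factors, is built from RpLP0, RpLP1 and RpLP2. RpLP0 had an IDR signal of 521 with its summit 22 bp upstream, and ranked 503 in replicate 1 and 116 in replicate 3. RpLP1 had 265 at 10 bp upstream, with ranks of 2806 in replicate 1 and 471 in replicate 3. RpLP2 had 146 at 66 bp upstream, with ranks of 2669 in replicate 1 and 2335 in replicate 3. All 3 were thus marked, over a wide span of signal. RpS27A and RpL40 make their ribosomal proteins fused to ubiquitin. RpS27A had an IDR signal of 305, with its summit 59 bp upstream and equally far from the TSS of Ip259. RpL40 had no IDR summit. Outside the symbol pattern, sta, which encodes the small-subunit protein SA, had 274 at 19 bp upstream, with ranks of 945 in replicate 1 and 814 in replicate 3. Rack1, a scaffold protein of the small subunit, had 556 at 27 bp upstream, with ranks of 332 in replicate 1 and 114 in replicate 3.

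The 15 members without an IDR summit were mostly paralog copies or genes with a -like symbol. Of these, 11 belonged to a listed pair of paralogs or had a symbol ending in -like. The other 4 were RpL21, RpL40, RpS24 and RpS9. Among the 65 members outside the pairs and without -like, 61 were marked (93.8%, interval 85.0 to 98.3), and all 65 had a summit in the pooled list and in each replicate list. In the listed pairs 16 of 26 genes were marked (61.5%, interval 40.6 to 79.8), and of 5 genes ending in -like only RpLP0-like was.

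The 4 unpaired members without an IDR summit had weaker summits in the longer lists. RpS24, a small-subunit gene, had a pooled signal of 106 at 17 bp upstream, just under the lowest IDR signal of 112, with ranks of 3316 in replicate 1 and 6510 in replicate 3. RpS9, another small-subunit gene, had 105 at 81 bp downstream, with ranks of 4344 in replicate 1 and 6306 in replicate 3. RpL21 had 76.1 at 7 bp downstream, with ranks of 13521 in replicate 1 and 5699 in replicate 3. RpS24, RpS9 and RpL21 therefore had a summit at the start that fell below the threshold. RpL40 differed: its strongest pooled summit, 98.0, lay 706 bp upstream, and the summit 3 bp upstream of its TSS had a signal of 44.2.

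Most pairs of duplicated genes had a single marked copy with the 1 kb limit, but not with a 2 kb limit, which left 6 such pairs. At 2 kb RpS14a was marked through the strongest summit of its partner RpS14b, of signal 323 and 1118 bp away. Within 1 kb, of 13 pairs, 10 had an IDR summit at 1 copy, 3 at both and none at neither copy, and no IDR peak was within reach of both copies of a pair. Copies on different arms made up 10 of the 13 pairs. The promoters of a pair shared no run longer than 8 to 11 bases on the same strand.

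**Figure D3:**
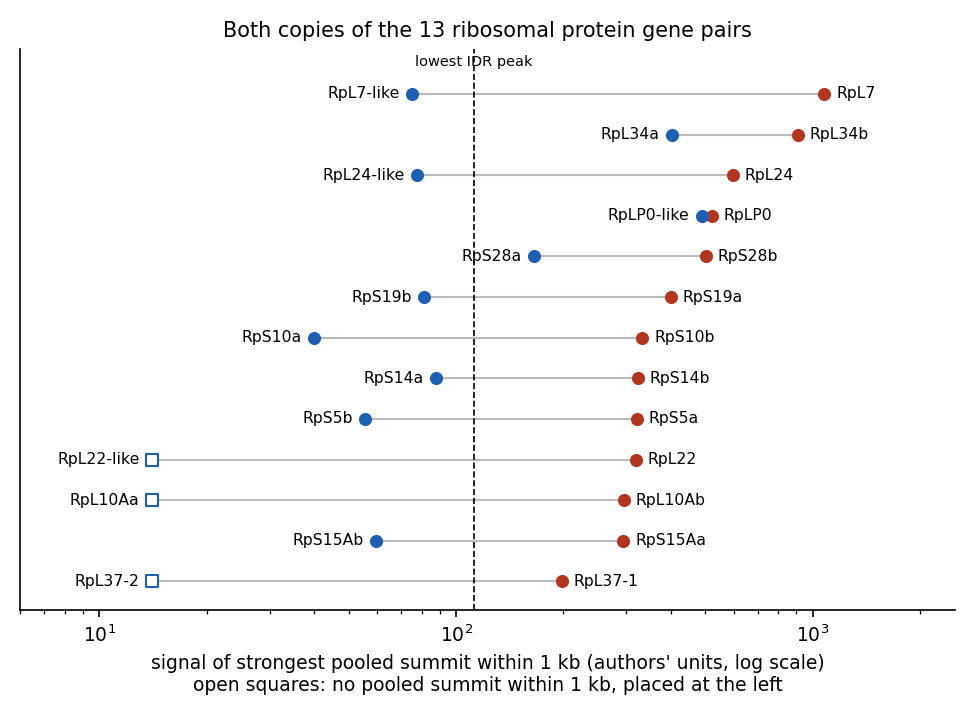
Signal of the strongest pooled summit within 1 kb of a TSS (authors' units, log scale) for both copies of 13 pairs, with the copy of higher signal in red and the other in blue. Open squares mark copies with no pooled summit, placed at the left edge, and the dashed line is the lowest IDR signal, 112. Only RpL34a, RpLP0-like and RpS28a among the lower copies lie right of the line.

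Both copies were marked in 3 pairs. RpL34b had 906 and RpL34a 402, a ratio of 2.25. RpL34a had a signal of 262 in replicate 3 at rank 260, but no summit within 1 kb in replicate 1. RpS28b had 502 with its summit 25 bp upstream and RpS28a 165 with its summit 81 bp upstream, a ratio of 3.04. RpLP0 had 521 and RpLP0-like 488, a ratio of 1.07. RpLP0-like is related to the yeast assembly factor Mrt4, and its summit lay 67 bp upstream of its TSS but 20 bp from that of 14-3-3zeta, which starts in the other direction. That peak cannot be given to one of the neighbours.

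In the other 10 pairs the marked copies had IDR signals of 1078 at RpL7, 596 at RpL24, 400 at RpS19a, 333 at RpS10b, 323 at RpS14b, 321 at RpS5a, 319 at RpL22, 295 at RpL10Ab, 294 at RpS15Aa and 198 at RpL37-1. Their partners had at most weak pooled summits. RpS14a had 87.6, RpS19b 81.5, RpL24-like 77.6, RpL7-like 75.1, RpS15Ab 59.5, RpS5b 55.4 and RpS10a 39.9. No pooled summit lay within 1 kb of RpL22-like, RpL10Aa or RpL37-2. RpL7-like and RpL24-like are related to the yeast assembly factors Rlp7 and Rlp24. RpS5b, RpS10a, RpS19b and RpL22-like are known mainly from the germ line of the fly.

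The weak summits of the unmarked copies lay at the start in some and away from it in others. The strongest pooled summit lay 398 bp upstream at RpS19b, 659 bp upstream at RpS5b and 881 bp upstream at RpS10a. RpS5b also had a pooled summit 40 bp upstream with a signal of 44.1, and its strongest summit in replicate 3 lay 19 bp upstream. The strongest pooled summit lay at the start for RpL7-like (14 bp upstream), RpL24-like (38 bp upstream), RpS14a (23 bp upstream) and RpS15Ab (14 bp downstream). The replicates did not all repeat this. RpL24-like had no summit within 1 kb in replicate 1, and RpS15Ab had none in replicate 3. At RpL7-like the strongest summit lay 150 bp upstream in replicate 1 and 894 bp upstream in replicate 3, where a weaker summit lay 15 bp upstream. RpS14a and RpS14b are tandem copies on the X chromosome with TSSs 1156 bp apart and encode the same protein. RpS14b ranked 1622 in replicate 1 and 333 in replicate 3. The strongest summit of RpS14a ranked 5207 in replicate 1, where it lay 483 bp upstream. In replicate 3 it ranked 3568 and lay 21 bp upstream. RpS28-like, which is in no listed pair, had a pooled summit of 65.0 at 753 bp downstream, past the end of its short gene.

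The RpS19 pair shows the promoters of a marked and an unmarked copy side by side. Both runs are dm6 (RefSeq), from 150 bases before the annotated start to 15 after it, 5′ to 3′ on the strand of the gene, with capitals for a TCT initiator.
RpS19a (chrX:16637744-16637909, plus strand): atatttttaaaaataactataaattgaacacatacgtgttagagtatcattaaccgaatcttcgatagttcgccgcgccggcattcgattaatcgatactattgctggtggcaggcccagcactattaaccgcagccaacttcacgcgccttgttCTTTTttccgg
RpS19b (chr3R:23933515-23933680, minus strand): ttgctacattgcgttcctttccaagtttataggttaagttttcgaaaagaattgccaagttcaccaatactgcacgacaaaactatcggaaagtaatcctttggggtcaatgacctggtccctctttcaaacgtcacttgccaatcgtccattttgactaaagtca
RpS19a holds the TCT initiator at its start, with an IDR summit 1 bp from the TSS, ranks of 1963 in replicate 1 and 150 in replicate 3 and a signal of 400. RpS19b has no such initiator, and its strongest pooled summit was far from the start. The starts of some other pairs follow for comparison. They are given as 30 bases from 14 before the start to 15 after it, with the marked copy before its partner.
RpS5a (chrX:17148249-17148278, minus strand): acactgccgtaacatgttCTTTTtcaggcg
RpS5b (chr3R:14901548-14901577, minus strand): gctccttttaccgtttCTTTTtcatcctct
RpS10b (chrX:19598017-19598046, plus strand): accgtcttcttcttgtcatcccttccgttt
RpS10a (chr3R:27652746-27652775, plus strand): aagtttcggtaaatactaatttaagctggc
RpL10Ab (chr3L:11822837-11822866, plus strand): taaaaaccgattttcacttcctttctaaat
RpL10Aa (chr3R:15037352-15037381, plus strand): acaatacatttcaaattttgtgcttgtaga
RpS5a and RpS5b both carry the TCT initiator. The pairs RpS10b and RpS10a, and RpL10Ab and RpL10Aa, carry it in neither copy within 5 bp of the start shown. In the RpL10Ab run CTTTC stands just beyond that distance. Whether the initiator goes with the marked copy of a pair was not tested.

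The 2 replicates ranked the members differently. Each IDR peak was matched to the replicate peaks that overlapped it by at least 1 bp, and 76 of the 77 marked members had a match in both replicates, the exception being RpL34a. Median rank was 1082 in replicate 1 and 384 in replicate 3. The rank was higher in replicate 3 for 69 of 76 members (90.8%), against 48.9% of all marked genes. This held for 40 of 46 RpL and RpLP genes and for 29 of 30 RpS genes. In the other lists it was 18 of 23 eIF and eEF genes (78.3%), 15 of 23 ribosome biogenesis genes (65.2%) and 24 of 41 mitochondrial ribosomal protein genes (58.5%). Both replicates used the same control alignment, per the deposited file descriptions, and what else differed between them was not tested.

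**Figure D4:**
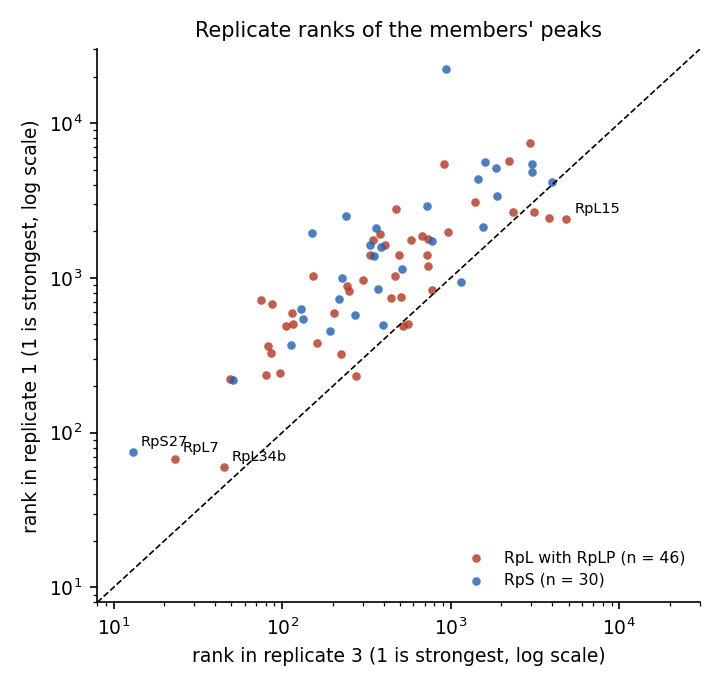
Rank of the replicate peak matched to each member's strongest IDR peak in replicate 1 (vertical) and replicate 3 (horizontal), both log scale with rank 1 strongest, for 46 RpL and RpLP genes and 30 RpS genes. Points above the dashed line of equal rank, 69 of 76, ranked higher in replicate 3.

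Wide rank differences were found at genes with modest IDR peaks. RpL37-1, with an IDR signal of 198, ranked 5422 in replicate 1 and 915 in replicate 3. RpL38, known in the mouse for its part in translating Hox messenger RNAs, ranked 7422 in replicate 1 and 2961 in replicate 3.

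RpS6, whose protein is phosphorylated by S6 kinase, ranked 5587 in replicate 1 and 1592 in replicate 3. RpL5, the partner of RpL11, ranked 5655 in replicate 1 and 2205 in replicate 3. The 7 members that ranked higher in replicate 1 were RpL15, RpL6, RpL35, RpS2, RpL3, RpLP0-like and RpL17. The widest reverse difference was at RpL15, with ranks of 2389 in replicate 1 and 4859 in replicate 3. The summits of the replicates lay a median of 17 bp apart at members, against 26 bp over all marked genes.

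Many ribosomal protein genes have close neighbours, and a peak between genes cannot be given to one of them by position alone. At 48 of 77 members (62.3%) the strongest summit also lay within 1 kb of a TSS of another protein-coding gene, against 62.0% of all marked genes. At 33 members the summit lay between their TSS and that of a neighbour transcribed the other way. The nearest TSS was nonetheless that of the ribosomal protein gene at 75 of 77 members, with a tie at RpS27A and a nearer neighbour at RpLP0-like. The counts of 33 and 75 have no share over all marked genes beside them here, so they are descriptions of the members only. Neighbours within 100 bp of the summit included Ripalpha at RpL7 (53 bp), Nelf-E at RpL14 (94 bp), Sgf29 at RpL29 (86 bp) and Dref at RpL13 (78 bp). Dref encodes DREF, the factor that binds the DNA replication-related element. At 29 members no other protein-coding TSS lay within 1 kb of the summit.

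A further IDR summit lay within 1 kb at 15 of 77 marked members, against 576 of all 3761 marked genes. There were 15 such summits at members, and 12 of these were nearer to the TSS of another gene. The strongest, of 330, lay 897 bp downstream of the start of RpL34b and 70 bp from the TSS of CG34117. Another of 301 lay 812 bp upstream of RpS28b and 61 bp from the TSS of l(1)G0320. Only those at RpL6, RpL27A and RpS23 were nearest to the ribosomal protein gene itself.

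The widest gaps in promoter sequence between members and all genes were at the initiator and at the DNA replication-related element (DRE). The window ran from 250 bp before to 50 bp after the 5′-most annotated start, with sites searched on both strands. The TCT initiator, on the sense strand with its C within 5 bp of the start, was present at 31 of 92 members (33.7%), against 3.47% of all protein-coding genes. RpS4 is not among them, since its TCT letters stand at an inner start. The common initiator, searched as TCAGT or TCATT with its A within 5 bp, was present at 2.17% of members, RpL15 and RpL23A, against 13.2% of all genes. TATCGATA, the full DRE, stood in 28 of 92 members (30.4%), against 9.36% of all promoters. Its core TATCGA, which the full site contains, stood in 52.2%, against 27.7%. The DRE was not particular to members: at eIF and eEF promoters the core stood in 54.9% and the full site in 27.5%. At mitochondrial ribosomal protein promoters the core stood in 49.3% and the full site in 20.5%. GGTCACACT, which the promoter factor M1BP binds, was in 9 of 92 members (9.78%), against 6.04%, and its first letters GGTCAC were in 26.1%, against 14.6%. None of these differences was tested.

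**Figure D5:**
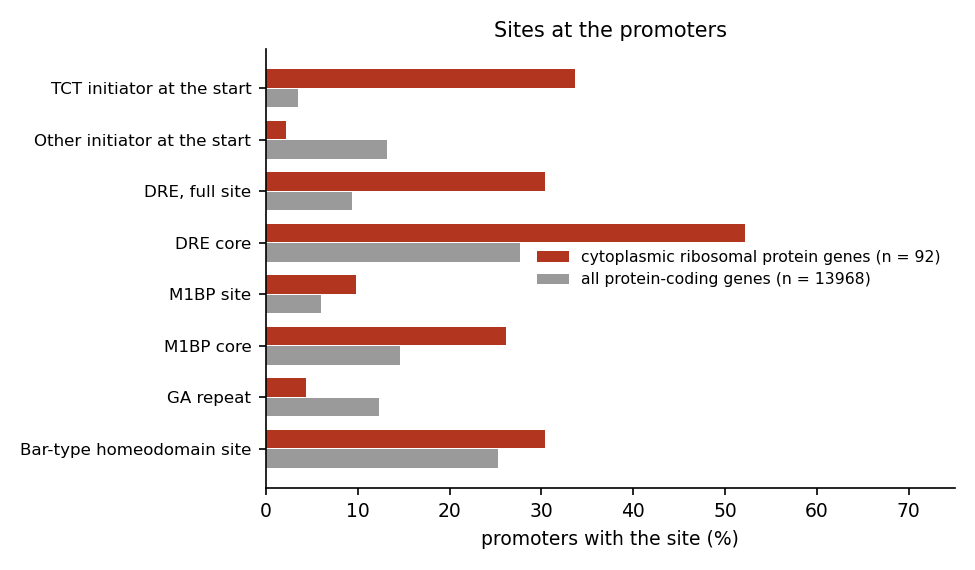
Percentage of promoters with each site, for 92 cytoplasmic ribosomal protein genes (red) and all 13968 protein-coding genes (grey). The initiators are searched within 5 bp of the start and the other sites in the window from 250 bp before to 50 bp after it. GA repeat is GAGAGA and the Bar-type homeodomain site is TAATTG. The TCT initiator was present at 33.7% of members, against 3.47% of all genes.

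The letters of homeodomain sites stood at members in shares close to those of all promoters. TAATTG, a site of Bar-type homeodomains, stood in 28 of 92 member promoters (30.4%), against 25.3% of all promoters. TAATTA stood in 27.2%, against 20.5%, and TAAACG in 14.1%, against 14.6%. GAGAGA, a site of GAGA factor, was in 4.35% of members (RpL21, RpL4, RpLP1 and RpS4), against 12.3% of all genes. TATAAA was in 47.8%, against 45.9%.

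Within 50 bp of the summits, TAATTG and TAATTA stood at a smaller share of ribosomal protein genes than of all marked genes. Within 50 bp of the strongest IDR summit, TAATTG stood at 3 of 77 members (3.90%), against 9.04% of all 3761 marked genes, and TAATTA at 2 of 77 (2.60%), against 8.48%. TAAACG stood at 4 of 77 (5.19%), against 5.03%. TATAAA stood at 7.79%, against 18.0%. M1BP and DRE letters stood at a larger share of members: GGTCAC stood at 17 of 77 members (22.1%), against 5.98%, GGTCACACT at 9.09%, against 2.45%, and TATCGA at 29.9%, against 17.7%. The full TATCGATA stood at 16.9%, against 5.69%. DRE letters had still larger shares at the 24 marked eIF and eEF genes, with TATCGA at 41.7% and TATCGATA at 20.8%. At the 41 marked mitochondrial ribosomal protein genes TATCGA stood at 14.6% and TATCGATA at 2.44%. The summit windows also differed in base composition, with a mean GC content of 46.9% at members, against 38.4% over all marked genes. They lay nearer to the start at members, a median of 22 bp away against 126 bp for the other marked genes. The part of composition and of position in these shares was not tested.

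The promoters of RpL28 and RpS21 show both kinds of letters. RpL28 had an IDR signal of 578 with its summit 50 bp upstream, and RpS21 had 545 with its summit 4 bp upstream. Each run is dm6 (RefSeq), from 150 bases before the start to 15 after it, 5′ to 3′ on the strand of the gene. Capitals mark the full DRE and the TCT initiator in RpL28, and in RpS21 CAATTA, which is TAATTG read on the other strand.
RpL28 (chr3L:3222945-3223110, minus strand): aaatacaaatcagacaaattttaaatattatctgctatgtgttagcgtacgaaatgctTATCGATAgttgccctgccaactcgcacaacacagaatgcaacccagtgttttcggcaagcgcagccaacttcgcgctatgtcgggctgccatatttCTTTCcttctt
RpS21 (chr2L:2855920-2856085, plus strand): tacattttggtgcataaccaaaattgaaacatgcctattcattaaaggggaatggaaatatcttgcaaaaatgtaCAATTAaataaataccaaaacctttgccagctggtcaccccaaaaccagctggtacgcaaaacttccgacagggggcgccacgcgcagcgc
In RpS21 the homeodomain letters lie upstream of the summit and more than 50 bp from it. The M1BP letters GGTCAC also stand in the RpS21 run, not capitalised, and lie within 50 bp of the summit. The start of RpS21 itself has no TCT initiator within 5 bp.

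Members were marked in similar shares with and without the initiator. Members with a TCT initiator within 5 bp of the 5′-most start were marked in 25 of 31 cases (80.6%). Those without it there were marked in 52 of 61 (85.2%). Median IDR signal was 395 for members with it and 317 for members without it, and median distance was 36 bp with it and 19.5 bp without it. Among other protein-coding genes, 131 of 453 with a TCT initiator were marked (28.9%), against 3553 of 13423 without it (26.5%). The count of members with the motif rested on how exactly the annotated start is placed, since it was 7 within 2 bp of the start and 48 within 10 bp, and 57 within 5 bp of any annotated start. The direction of the comparison rested on it too. Within 5 bp of the 5′-most start, the motif stood at 32.5% of the 77 marked members and 40.0% of the 15 unmarked members. Within 5 bp of any annotated start it stood at 63.6% of marked and 53.3% of unmarked members.

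Genes that work with the ribosome were marked in smaller shares than the genes of its own proteins. Of 45 genes for ribosome biogenesis, which make ribosomal RNA or assemble the subunits, 25 had an IDR summit (55.6%, interval 40.0 to 70.4). That count was 16 when each summit counted for its nearest TSS only, a setting with no share over all genes beside it here. It was also 16 with the stronger 2138 peaks, which marked 2287 of all 13968 protein-coding genes. Of 73 mitochondrial ribosomal protein genes 41 had an IDR summit within 1 kb (56.2%, interval 44.1 to 67.8). Of 51 genes for translation initiation and elongation factors (eIF and eEF) 24 did (47.1%, interval 32.9 to 61.5). All 3 shares lay above the 26.9% of all genes and below the 83.7% of cytoplasmic ribosomal protein genes. The differences were not tested.

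These lists also differed in signal and position. Median IDR signal was 323 at cytoplasmic ribosomal protein genes, against 230 at eIF and eEF genes, 210 at biogenesis genes and 178 at mitochondrial ribosomal protein genes. Median distance from the TSS was 22 bp, against 42 bp at eIF and eEF genes, 97 bp at biogenesis genes and 134 bp at mitochondrial ribosomal protein genes. The eIF and eEF genes thus came nearest to the cytoplasmic ribosomal protein genes in position, and the mitochondrial ribosomal protein genes were the farthest. Another protein-coding TSS was in reach of the summit at 62.3% of marked ribosomal protein genes, against 66.7% of eIF and eEF genes, 92.0% of biogenesis genes and 95.1% of mitochondrial ribosomal protein genes.

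The strongest biogenesis gene was eIF6, which also counts among the eIF genes and encodes the factor that keeps the large subunit from joining early. Its signal was 1453 at rank 12, with the summit 99 bp upstream, and it ranked 21 in replicate 1 and 11 in replicate 3. Rrp40, a subunit of the RNA exosome, had 1424 at rank 14, but its summit lay 816 bp upstream. Ns2, a nucleostemin-family GTPase, had 646 with its summit 138 bp upstream. No IDR summit lay within 1 kb of 20 biogenesis genes, among them Polr1A, Polr1B and Polr1C of RNA polymerase I and its factor Tif-IA, while Polr1D had one of 126 at 264 bp upstream.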

How the data were processed

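ChIP-seq peak lists of 2 B-H2-GFP embryo replicates, their pool and the IDR set were used as the authors deposited them, in dm6 coordinates per the labels. Chromatin had been sonicated to 200 to 800 bp, per the labels. Signal values, −log10 q-values and summit offsets are the authors' deposited columns. The −log10 q-value stops at 4.09 in the pooled list and was not used for ranking, and the score and p-value fields, as deposited, carry constants. The peak caller, its version and the IDR threshold were not given in the sources used here. The hours come from the source label, because the separate age entry does not read as a time. Signal tracks were not analysed here.

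Summits were assigned to protein-coding TSSs of Ensembl 115 (BDGP6.54) on the chromosome arms, 19275 distinct positions, and the sequence is RefSeq dm6. Every gene with a TSS within 1 kb received a summit. No peak lay past the end of an arm. Shares have exact (Clopper-Pearson) intervals, medians have order-statistic intervals, and the RpL and RpS shares were compared with Newcombe's interval. The assignment was tested on simulated data. Pairs were listed by name. Of 46 biogenesis symbols 1 matched no gene. Named genes were the 10 strongest, every member without an IDR summit, both copies of each pair, the P-stalk and ubiquitin-fusion genes, sta, Rack1, the 5 greatest rank differences, 3 on each side of the 1 kb limit and the 4 strongest biogenesis genes. Some genes that this rule names are not reported here. The members and lists were chosen with earlier results of these data known. Alternatives covered the TSS window, peak strength, overlap in place of summits, nearest or 5′-most TSS, each replicate alone, and gene subsets. Software was Python 3.11.15 with matplotlib 3.10.9, scipy 1.17.1 and numpy 2.4.6.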

Additional observations from a re-analysis of the deposited data

How the results depend on the processing

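The count of marked ribosomal protein genes ran between 63, with the stronger 2138 IDR peaks only, and 82, with a 2 kb limit that added RpL24-like, RpS14a, RpS15Ab, RpS19b and RpS9. Without replicate 1 it was 78 and without replicate 3 it was 72. A 2 kb limit turned the difference between RpL and RpS shares to -0.585 points and left 6 pairs with a single marked copy. At that limit RpS14a counted through the strongest summit of RpS14b. Biogenesis genes fell to 16 with the stronger peaks, which marked 2287 of all 13968 protein-coding genes. They also fell to 16 when each summit counted for its nearest TSS only. Median signal was 219 without replicate 1 and 113 without replicate 3, on those lists' own scales. Median distance was 37.0 bp from the 5′ end alone. Another gene was in reach of 31 members within 500 bp and of 18 within 250 bp. The TCT counts of 7, 48 and 57 came from alternatives chosen after seeing the data.

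Leaving out a replicate gave a difference between RpL and RpS of 3.31 to 5.46 points, 8 to 10 pairs with 1 marked copy, 23 to 27 biogenesis genes, 48 to 57 upstream summits, a median distance of 20.5 to 21.5 bp and 47 to 50 members with another gene in reach. Of the main results, 64 settings kept the value, 11 moved it and 1 turned its direction. No paired analysis was possible because there was only 1 group. Depth is unknown, so weak and missing summits cannot be told apart from low coverage.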
